A study of Sus scrofa domesticus with 4 samples.

Results

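The fuel switch and glycolysis enzymes PDK4, PDK1, PCK1, HK1, HK2, LDHA and GAPDH were followed in porcine endometrium cultured with orexin A (OXA), a peptide made by neurons of the hypothalamus that drives feeding and wakefulness. The members were the probes whose RefSeq accession in the scanner files belongs to 1 of these 7 pig genes. All 7 genes had probes, 22 of the 43603 non-control probes, and the array named 3029 genes in this way. PDK4 had 9 probes, PCK1 had 5, PDK1, HK1 and GAPDH had 2 each, and HK2 and LDHA had 1 each. The 22 probes all passed the filter for signal (well above background in at least 4 of 8 readings), so every member could be followed.

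The tissue was endometrium of 4 mature gilts (Large White x Polish Landrace, aged 7 to 8 months) on days 15 to 16 of gestation, so that treated and control tissue was pregnant alike. OXA tissue was kept with the peptide for 24 h after a preincubation of 2 h, at 10 nM per the sample labels and at 10 µM per the design text of the series. Control tissue was kept for the same time without treatment. Each of 4 Agilent 2-colour arrays held 1 OXA RNA and 1 control RNA. Cut slices hold epithelium, stroma, vessels and immune cells together, and in such bulk samples fewer cells of a type and less RNA per cell cannot be told apart.

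Pyruvate stands where glucose use divides: the pyruvate dehydrogenase complex sends it to the mitochondria, lactate dehydrogenase turns it into lactate, and gluconeogenesis takes carbon back towards glucose. The pyruvate dehydrogenase kinases switch the complex off by phosphorylation, which spares glucose when fatty acids are burned or when oxygen is low. In early pregnancy the endometrium takes up glucose from the blood and releases part of it into the uterine lumen, where the elongating conceptus uses it.

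The single samples' labels put the OXA RNA in the red dye Cy5 on arrays 1 and 3, and in the green dye Cy3 on the other two, whereas the labelling protocol has it in Cy5 throughout. Values are log2 OXA over control, so that a value below 0 is lower with OXA. Fitted values come from limma with a dye coefficient, and its p-values rest on the spread between arrays of 1 dye orientation, whatever the origin of that spread. Between 62.2% and 74.4% of probes were well above background in Cy5, and 52.0% to 56.7% in Cy3 except on array 1, with 31.6%. Array 1 was scanned 71 days after the other 3. The ratios of the 4 arrays correlated weakly over all probes, from -0.29 (arrays 3 and 4) to 0.42 (arrays 1 and 2), and all 6 uterine endometrium markers that had a probe passed the filter for signal.

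How background was handled set the size of the dimmer members. The normexp correction, chosen as the standard setting, placed the background below 0 in all 8 channels (-96.4 to -2113 units). Together with its offset of 50 it added 144 to 2403 units to the median spot after local background subtraction, where a correction would remove some. Over the dimmer 13464 of the tested probes the SD of the log2 ratios was 0.29, 0.17, 0.042 and 0.020 on arrays 1 to 4 with normexp, against 0.46, 0.32, 0.25 and 0.25 with no background correction. Dim ratios on arrays 3 and 4 were thus pressed towards 0. Every member is therefore given both ways, and levels are intensities with no background correction, in arbitrary units, after loess within each array and scaling between arrays.

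PDK4, the kinase that inhibits pyruvate dehydrogenase and is known as a fasting-induced gene, was lower with OXA on arrays 1 and 3 and close to control on arrays 2 and 4. Its brightest probe had levels of 9776, 13416, 6153 and 19521 in the OXA RNA of arrays 1 to 4, against 26797, 15034, 21525 and 17722 in the control RNA. The OXA level of array 4 was above 2 of the 4 control levels, so the groups overlapped. The log2 ratios were -1.40, -0.28, -1.56 and 0.20 with normexp, a mean of -0.76 ± 0.85 (SD, n = 4), and -1.45, -0.16, -1.81 and 0.14 with no background correction, a mean of -0.82 ± 0.95 (SD, n = 4). The low values were those of the arrays with OXA in Cy5. By dye, the uncorrected ratios averaged -1.63 with OXA in Cy5 and -0.012 with OXA in Cy3.

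The fitted PDK4 value was -0.76 (SE 0.11, 95% interval -1.06 to -0.47), a fold of 0.590. In limma it did not pass over all 26927 probes (adjusted p = 0.763; unadjusted p = 0.00215). The dye coefficient of the same probe was -0.72, nearly as large as the OXA value, and takes up the split between the dyes. With no dye coefficient the value was the same, but its SE was 0.35 and the unadjusted p in limma was 0.0848. If the OXA RNA was in Cy5 on every array, as the labelling protocol has it, the value was -0.72 (unadjusted p = 0.117, adjusted p = 0.905 in limma). The part of the dye in the PDK4 result was not tested beyond these fits.

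**Figure D1:**
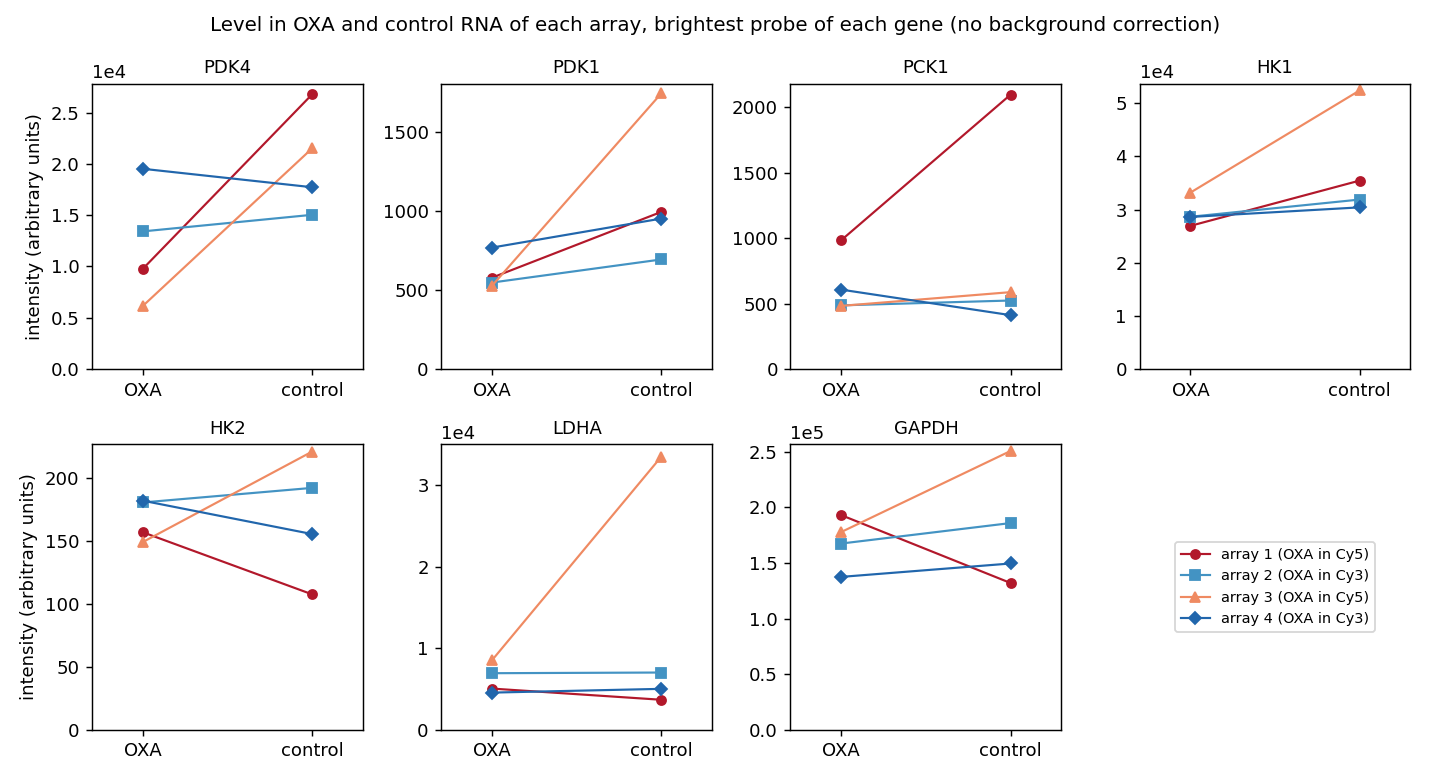
Level of the brightest probe of each gene in the OXA RNA (left) and the control RNA (right) of the 4 arrays, as intensity in arbitrary units with no background correction; each line joins the 2 RNAs of 1 array, with warm colours for OXA in Cy5 and blue for OXA in Cy3. PDK4 is far lower in the OXA RNA on arrays 1 and 3, PDK1 is lower in the OXA RNA on all 4 arrays, and the widest gaps are on array 1 for PCK1 and on array 3 for LDHA.

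The 9 PDK4 probes repeated this pattern among themselves, though they read the same RNAs and are not replicates. Fitted values ran from -0.91 to -0.24 with normexp (median -0.70) and from -1.02 to -0.56 with no background correction (median -0.92). All 9 were below 0 on arrays 1 and 3 in both settings. On array 4, 4 of 9 were below 0 with normexp and 5 with no background correction, and the uncorrected values there ran only from -0.15 to 0.31. On array 2 the uncorrected values ran from -0.66 to 0.0063. Every OXA level was below every control level for 2 of the 9 probes, where this held for 0.36% of all probes.

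The dimmest PDK4 probe was at -0.24 with normexp, the value nearest 0 among the 9, and at -0.91 in Agilent's own log ratio. Its uncorrected value was -0.56, and -0.75 when normexp took its background from the negative-control spots, a setting added after the data were seen. Under that setting the 9 probes ran from -1.08 to -0.74, and in Agilent's log ratio from -1.18 to -0.79.

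**Figure D2:**
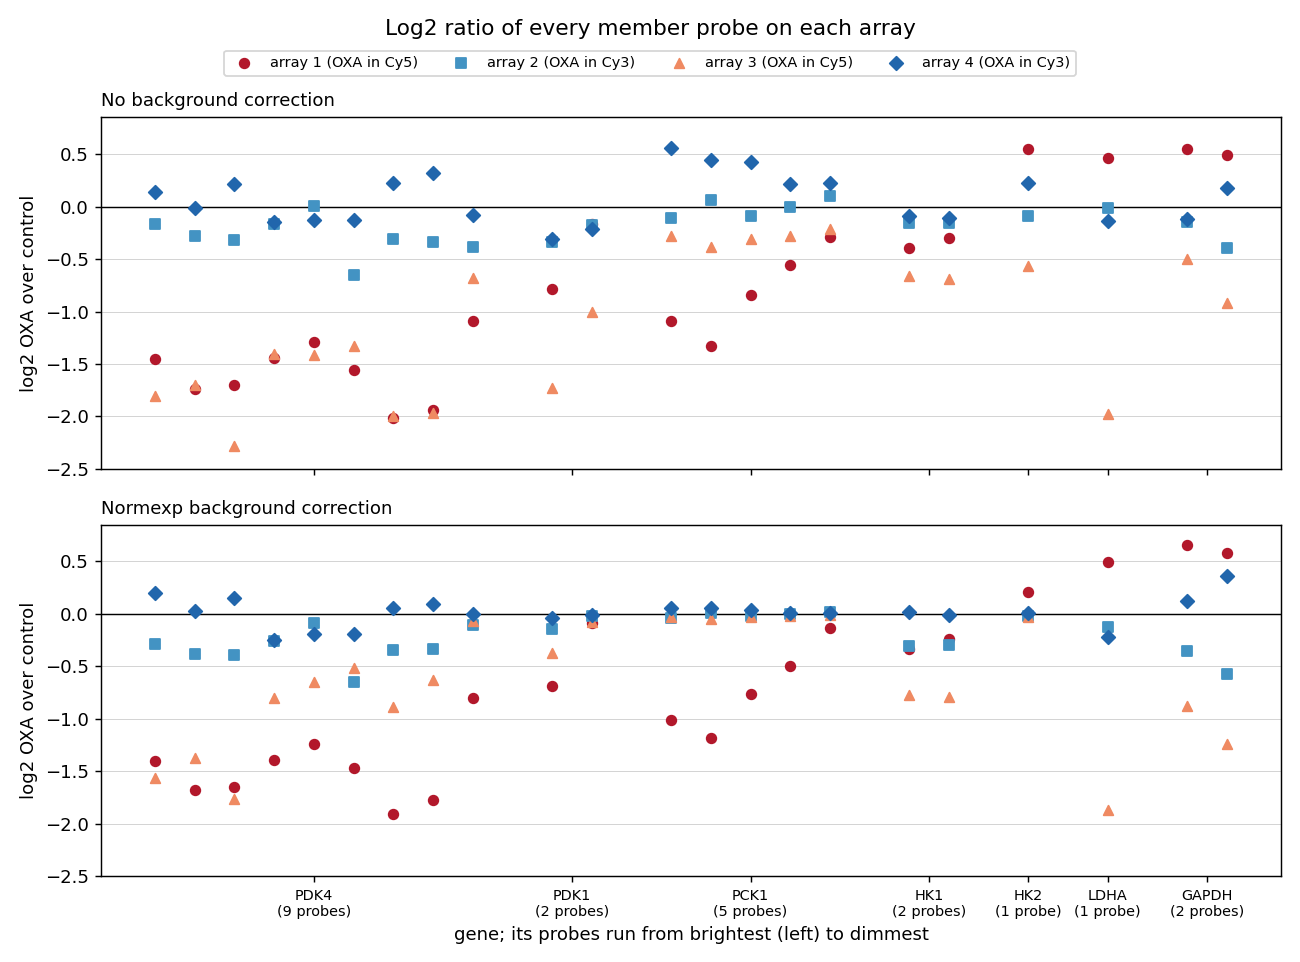
Log2 OXA over control of all 22 probes on each array, with no background correction (top) and with normexp (bottom); points are single arrays, and the probes of a gene run from the brightest on the left by their normexp brightness. All 9 PDK4 probes are below 0 on arrays 1 and 3 and near 0 on array 4 in both panels, while normexp draws the dim PDK1, PCK1 and HK2 probes of arrays 3 and 4 to 0.

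PDK1, a second pyruvate dehydrogenase kinase, which in human and mouse cells is a target of hypoxia-inducible factor, was below control on every array in both settings. Its brighter probe had levels of 578, 547, 527 and 768 in OXA RNA, against 994, 693, 1745 and 952 in control RNA. The control level of array 3 was the highest, and the groups overlapped in 1 place, where the OXA level of array 4 was above the control level of array 2. The log2 ratios were -0.69, -0.14, -0.37 and -0.042 with normexp, a mean of -0.31 ± 0.29 (SD, n = 4), and -0.78, -0.34, -1.73 and -0.31 with no background correction, a mean of -0.79 ± 0.66 (SD, n = 4). All 4 values were below 0, which held for 4.26% of all probes with normexp and for 5.72% uncorrected, and array 3 moved most between the settings. Without array 3 the uncorrected value was -0.55.

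The fitted PDK1 value was -0.31 (SE 0.080) with normexp and -0.79 (SE 0.18, 95% interval -1.23 to -0.35) with no background correction. Over all probes neither passed in limma (adjusted p = 0.763 and adjusted p = 0.758). The other probe was also below 0 on 4 of 4 arrays, with a fitted value of -0.049 with normexp and -0.39 with no background correction. In Agilent's log ratio the 2 probes were at -1.08 and -0.64. With 4 arrays, a sign-flip test that is exact cannot go below a two-sided p of 0.125, which is what 4 of 4 arrays on 1 side give.

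**Figure D3:**
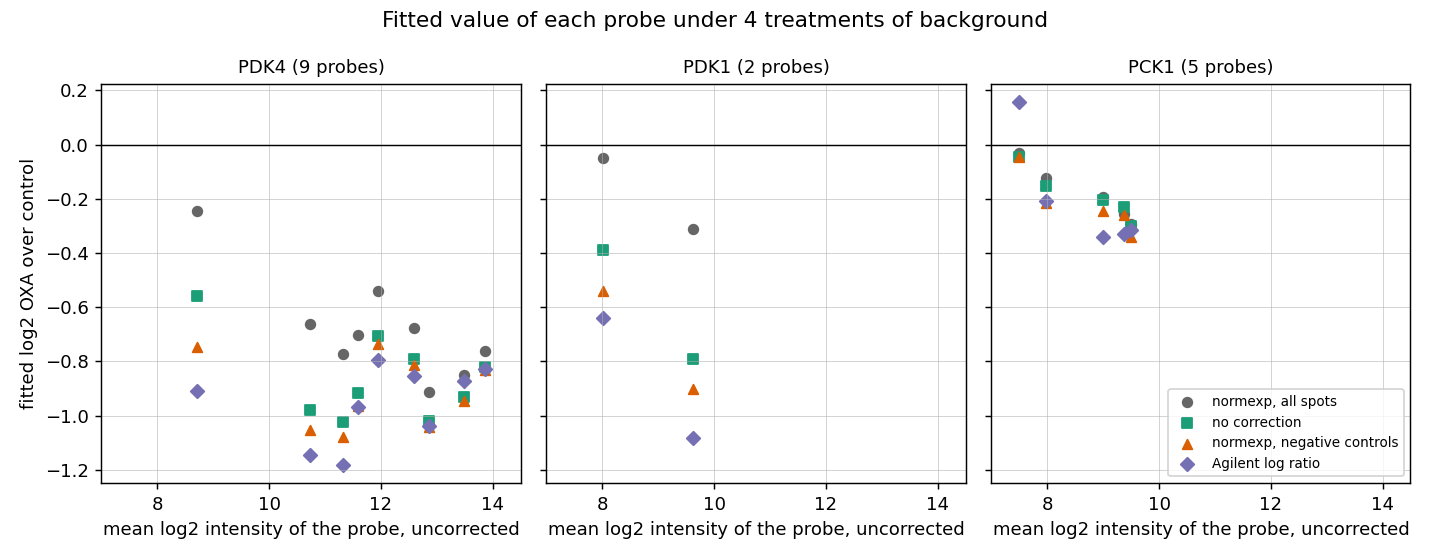
Fitted log2 OXA over control of each PDK4, PDK1 and PCK1 probe against its mean log2 intensity (uncorrected), under 4 treatments of background shown by colour. For PDK4 the settings lie closest together at its brightest probe (-0.83 to -0.76) and furthest apart at its dimmest (-0.91 to -0.24). For PDK1 they span -1.08 to -0.31 at the brighter probe and -0.64 to -0.049 at the dimmer. The 5 PCK1 probes stay between -0.34 and 0.16.

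PCK1, the cytosolic phosphoenolpyruvate carboxykinase that commits carbon to gluconeogenesis, was below control on array 1 by more than on any other array. Its brightest probe had levels of 984, 486, 482 and 606 in OXA RNA, against 2097, 523, 587 and 411 in control RNA. Both RNAs of array 1 were above all RNAs of the other arrays, and the groups overlapped. The log2 ratios were -1.01, -0.039, -0.033 and 0.056 with normexp and -1.09, -0.11, -0.28 and 0.56 with no background correction. The uncorrected ratios thus ran from below to above control.

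The fitted PCK1 value was -0.26 (SE 0.18) with normexp and -0.23 (SE 0.19, 95% interval -0.70 to 0.23) with no background correction, and neither passed (adjusted p = 0.763 and adjusted p = 0.786 in limma). All 5 probes were below 0 in the fit, from -0.29 to -0.029 with normexp and from -0.30 to -0.046 uncorrected. On array 1 the 5 probes were all below 0, and on array 4 they were all above 0. Without array 1 the brightest probe was at -0.012 with normexp and at -0.029 uncorrected, so its value rested on array 1. On array 1 the 3 stromal fibroblast markers had a median of 1.44 and the 6 epithelium markers a median of -0.84, and the part of either in the PCK1 value was not tested.

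HK1, the hexokinase of most tissues, which traps glucose in the cell by phosphorylation, was slightly below control on most arrays. Its brighter probe had levels of 26925, 28637, 33186 and 28601 in OXA RNA, against 35448, 31879, 52420 and 30406 in control RNA. The groups overlapped only through array 3, which was the highest in both RNAs. The log2 ratios were -0.33, -0.30, -0.77 and 0.019 with normexp, a mean of -0.35 ± 0.32 (SD, n = 4), and -0.40, -0.15, -0.66 and -0.088 with no background correction, a mean of -0.32 ± 0.26 (SD, n = 4). On 3 of 4 arrays with normexp, and on 4 of 4 uncorrected, OXA was thus lower.

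The fitted HK1 value was -0.35 (SE 0.11) and -0.32 (SE 0.14, 95% interval -0.65 to 0.00074) in the 2 settings. Neither passed limma's test (adjusted p = 0.763 and adjusted p = 0.758). The other HK1 probe gave -0.33 and -0.31. Bright probes such as these moved little between the treatments of background, but with median centring in place of loess HK1 was at 0.031.

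HK2, the hexokinase that insulin and low oxygen raise in other tissues, had 1 probe near the limit of detection, well above background in 2 of 4 OXA readings and 3 of 4 control readings. Its levels were 157, 181, 149 and 182 in OXA RNA, against 108, 192, 221 and 156 in control RNA. The OXA levels lay within the range of the control levels. The fitted value was 0.044 with normexp and 0.029 (95% interval -0.46 to 0.52) with no background correction, and Agilent's log ratio gave -0.33, so no direction could be given. Its adjusted p in limma was 0.799 with normexp.

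LDHA, the lactate dehydrogenase subunit that favours the turning of pyruvate into lactate, went both ways. The levels of its 1 probe were 5040, 6928, 8533 and 4547 in OXA RNA, against 3668, 7011, 33514 and 5009 in control RNA. The control RNA of array 3 stood far above the other 7, and the groups overlapped. The log2 ratios were 0.49, -0.12, -1.86 and -0.22 with normexp and 0.46, -0.017, -1.97 and -0.14 with no background correction. The fitted value was -0.43 (SE 0.43) with normexp and -0.42 (SE 0.36, 95% interval -1.28 to 0.44) uncorrected, and it did not pass (adjusted p = 0.763 and adjusted p = 0.786 in limma). Without array 3 the value was 0.16 with normexp and 0.19 uncorrected, while without array 1 it was -1.02 and -1.03.

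GAPDH, the glyceraldehyde 3-phosphate dehydrogenase of glycolysis that is often used to normalise other genes, had no common direction. Its brighter probe had levels of 193094, 167548, 177929 and 137532 in OXA RNA, against 132024, 185976, 250865 and 149581 in control RNA. OXA was above control on array 1 and below it on the others in these levels. The log2 ratios were 0.66, -0.36, -0.88 and 0.12 with normexp and 0.55, -0.15, -0.50 and -0.12 with no background correction. The fitted value was -0.11 (SE 0.29) with normexp and -0.055 (SE 0.19, 95% interval -0.52 to 0.41) uncorrected, far from the threshold (adjusted p = 0.875 and adjusted p = 0.950 in limma). The interval leaves room for a difference of about the size of HK1. The other GAPDH probe was at -0.22 and -0.16, and without array 3 the brighter one was at 0.27 with normexp and 0.21 uncorrected.

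Over the members together, 21 of 22 probes were below 0 in the fit with loess, where 43% of all probes were, and 14 of 22 with median centring, where 23.3% were. By gene 6 of 7 were, where 57.5% of named genes were. None of the 22 passed an adjusted p of 0.05 in limma, and neither did any of the 26927 probes (0%), of which 500 had an unadjusted p under 0.05 (1.86%). A looser limit took an unadjusted p under 0.05 together with a fold of 1.2 or more. At it 10 member probes, 8 of them of PDK4, were lower with OXA and 0 higher, where 0.672% of all probes were lower and 0.624% higher.

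By gene, taking the brightest probe, 3 of 7 members met that looser limit (PDK4, PDK1 and HK1), where 1.87% of the 2407 named genes did in that direction. With no background correction PDK4 and PDK1 met it, 2 of 7 against 5.11% of named genes, with all 9 PDK4 probes and 1 PDK1 probe among them (2.19% of all probes). HK1 missed it there (unadjusted p = 0.0504, adjusted p = 0.758 in limma). With no dye coefficient 0 of 7 genes (1.16% of named genes) and 2 PDK4 probes met it (0.423% of all probes), and under the Cy5 reading of every array 0 of 22 probes did (0.39% of all probes). With 1 array left out PDK4 met it each time: with LDHA and HK1 without array 1 (1.58% of named genes), alone without array 2 (1.37%), with PCK1 and PDK1 without array 3 (8.89%) and with HK1 without array 4 (3.41%).

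**Figure D4:**
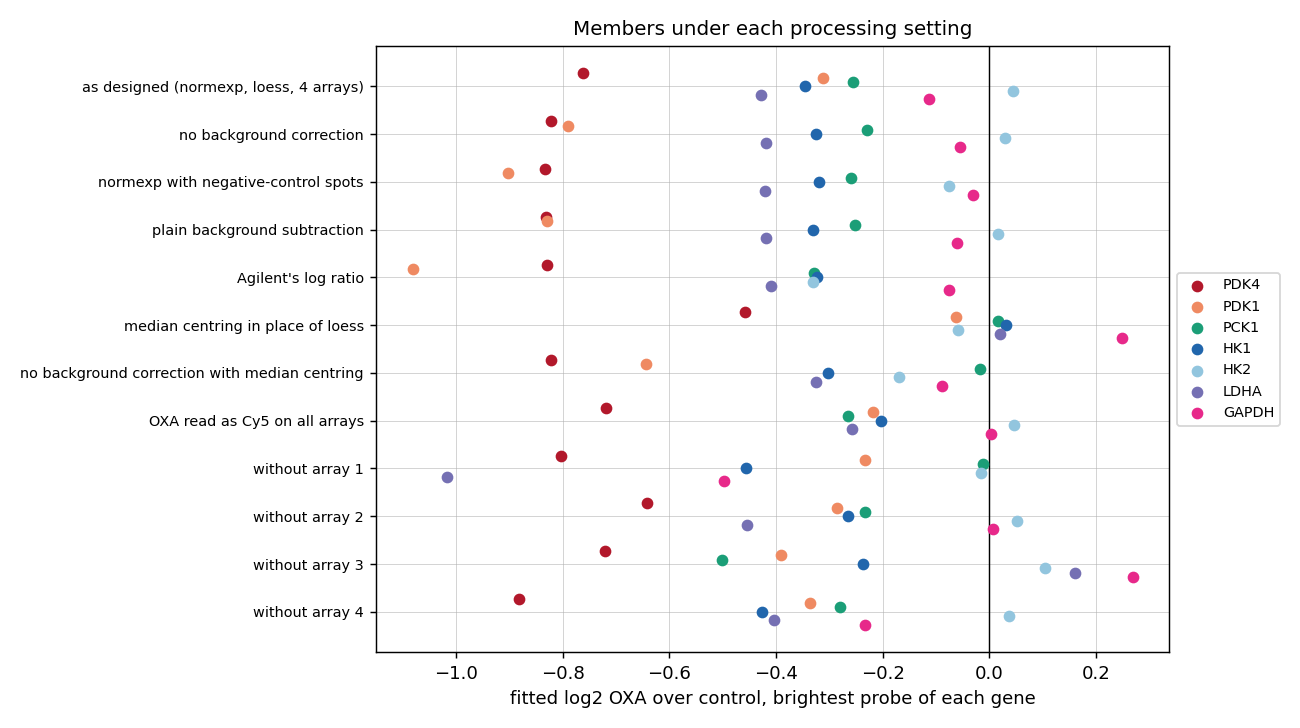
Fitted log2 OXA over control of the brightest probe of each member (colours) under 12 processing settings, each row a setting. PDK4 (-0.88 to -0.46) and PDK1 (-1.08 to -0.062) are below 0 in each, while LDHA, GAPDH, HK2, HK1 and PCK1 cross 0 in at least 1.

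The median of the 7 members was -0.31, where that of all named genes was -0.022 and that of all probes 0.020. Under median centring, used instead of loess, the member median was 0.016, PCK1, HK1 and LDHA were just above 0 and GAPDH was at 0.25, but that scaling also put the median of all probes at 0.14. Relative to that median PDK4 was at -0.60, PDK1 and HK2 at -0.21 and -0.20, PCK1, LDHA and HK1 at -0.13, -0.12 and -0.11, and GAPDH at 0.10. With median centring and no background correction, which left the median of all probes at 0.031, PDK4 was at -0.82, PDK1 at -0.64, LDHA at -0.32 and HK1 at -0.30.

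The other glycolysis genes had small values. Besides the members 7 of the listed glycolysis genes were measured. By their brightest probe all 7 were below 0, where 57.5% of named genes were. None met the looser limit, and the median was -0.12 with normexp and -0.23 uncorrected (0.19 with median centring). Glucose-6-phosphate isomerase GPI was at -0.27 (SE 0.12), aldolase ALDOC at -0.24 (SE 0.13) and the rate-limiting phosphofructokinase PFKM at -0.12 (SE 0.093). Triose phosphate isomerase TPI1 was at -0.23 (SE 0.19). The other 3, PGK1, ENO3 and LDHB, named after their values were seen, ran from -0.11 to -0.057. Further probes of these 3 genes reached 0.018, 0.018 and 0.21.

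The lowest values of the list were on array 3. Of the 11 glycolysis genes with members, 10 were below 0 on array 3 in both settings, against 3 on array 4 with normexp and 6 uncorrected. On array 3 the list had a median of -0.71 with normexp and -0.66 uncorrected, with LDHA lowest at -1.86, then GAPDH, TPI1, HK1, PGK1 and GPI from -0.88 to -0.71. On the other arrays the median lay between -0.12 and 0.013 with normexp and between -0.17 and -0.055 uncorrected. On array 3 the median of all named genes was 0.0096, the smooth muscle markers stood at 0.56 (0.27 uncorrected), the myeloid markers at 0.30 (-0.067 uncorrected), the epithelium markers at -0.0033 (-0.21 uncorrected) and the endothelium markers at -0.21 (-0.51 uncorrected). The part of tissue makeup in the array 3 values was not tested.

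The 3 measured subunits of the complex that the kinases inhibit were above 0 by their brightest probe, where 1024 of 2407 named genes were. The dihydrolipoamide dehydrogenase DLD was at 0.60 (SE 0.27), with 1.09, 1.06, 0.55 and -0.31 on arrays 1 to 4, but its 9 probes ran from -0.42 to 0.60. The E1 subunit PDHB was at 0.13 (SE 0.080) and the E2 subunit DLAT at 0.033 (SE 0.058), with the median of all probes at 0.020. None met the looser limit.

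Among gluconeogenesis genes besides PCK1, the mitochondrial PCK2 was at -0.26 (SE 0.15), fructose bisphosphatase FBP1 at -0.20 (SE 0.15), glucose-6-phosphatase G6PC at -0.017 (SE 0.054) and pyruvate carboxylase PC at 0.010 (SE 0.11). PCK2 was at -0.41, -0.43, 0.36 and -0.56 on arrays 1 to 4, so it did not share the array 1 pattern of PCK1. By the brightest probe, glucose and lactate transporters were all 3 below 0 with normexp, where 57.5% of named genes were. SLC5A1 was at -0.17, SLC2A4 at -0.15 and the monocarboxylate transporter SLC16A1 at -0.047. Other probes of these reached 0.0076, 0.029 and 0.017, and SLC5A1 was at 0.038 with no background correction. None of these 7 genes met the looser limit, and with median centring the list medians were at 0.045 for gluconeogenesis and 0.044 for transport.

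In the tricarboxylic acid (TCA) cycle, which takes over the acetyl groups that pyruvate dehydrogenase makes, 9 of 10 genes were above 0 (median 0.074). Of the 2407 named genes 1024 were above 0. On arrays 1 to 4 the median was -0.23, 0.055, 0.32 and 0.16 with normexp, and -0.28, 0.17, 0.11 and 0.35 uncorrected. On array 1, 8 of 10 were below 0. Without array 3, 2 of 10 were above 0 and the median was -0.054, in a fit where array 1 alone had OXA in Cy5. The isocitrate dehydrogenase subunit IDH3B was at 0.21 (SE 0.055, unadjusted p = 0.0205, adjusted p = 0.763 in limma), below the fold of 1.2. Uncorrected the same probe was at 0.21 (unadjusted p = 0.174 in limma), and the other IDH3B probe was at -0.0079 with normexp. The malate dehydrogenases MDH1 and MDH2 were at 0.22 (SE 0.082) and 0.14, and the succinate dehydrogenase subunit SDHB at 0.083. Fatty acid oxidation and ketone genes had 8 of 13 above 0 (median 0.024), with the electron transfer flavoprotein subunit ETFA at 0.32 (SE 0.13), the acyl-CoA dehydrogenases ACADM and ACADL at 0.40 and 0.17, and the carnitine palmitoyltransferase CPT1A at -0.13. None met the looser limit.

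Pentose phosphate genes were 3 of 3 below 0, where 57.5% of named genes were. TKT was at -0.15, TALDO1 at -0.20 and RPIA at -0.24, and the list median was 0.13 with median centring. Glycogen genes were 2 of 5 below 0 (median 0.0072), with PYGL at -0.23, GYS1 at 0.072, UGP2 at 0.084 and PGM1 at -0.037. Regulators of fuel choice were 8 of 12 below 0 (median -0.093, 0.031 without array 1 and 0.19 with median centring): the glucocorticoid receptor NR3C1 was at -0.13, FOXO3 at -0.18, the coactivator PPARGC1A at 0.16 and the thioredoxin-binding TXNIP at 0.31. The commonly used normalisation genes were 3 of 6 below 0 (median -0.014), with GUSB at 0.18, RPLP0 at -0.19 and HPRT1 at -0.15. Of the 8 listed glycolysis regulators the 1 gene with a probe did not pass the filter for signal. Over the 60 measured metabolic genes that are no members, 32 were below 0, the median was -0.018 and 0 met the looser limit. Of the 7 members 3 met it with normexp, 2 uncorrected and 0 with no dye coefficient. Members and lists were chosen with earlier results of these data known, so this contrast is no test.

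**Figure D5:**
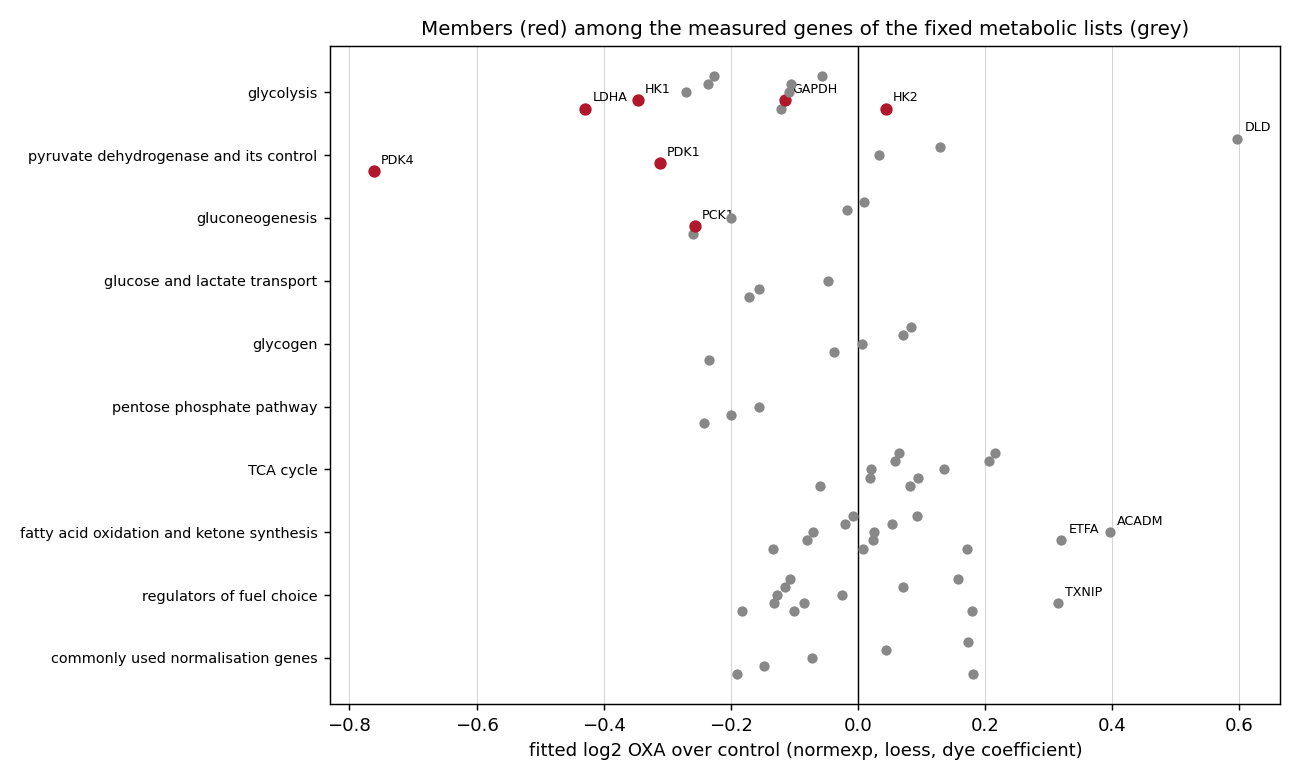
Fitted log2 OXA over control (normexp, loess and dye coefficient) of each measured gene in 10 metabolic lists, with members in red and named and the other genes in grey (named from 0.3 on). PDK4 at -0.76 is the lowest of all genes shown, LDHA, HK1 and PDK1 come next, and DLD at 0.60 is the highest.

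Levels of cell type markers differed between arrays. The summed level of the 6 measured epithelium markers was 80468 to 115964 in OXA RNA and 74328 to 187681 in control RNA, with the highest value in the control RNA of array 1. That of the 3 stromal fibroblast markers was 23132 to 75831 in OXA RNA and 22291 to 59101 in control RNA. The fitted medians were -0.11 for epithelium, 0.39 for stroma, -0.15 for smooth muscle, -0.20 for endothelium, -0.055 for myeloid cells, -0.047 for T and NK lymphocytes, -0.039 for conceptus and -0.13 for uterine endometrium markers, and no marker met the looser limit with normexp. With no background correction 4 did, named after their values were seen: the stromal LUM higher with OXA at 0.55, and the conceptus marker IL1B2 and the endometrium markers STC1 and LIF lower at -0.36, -0.62 and -0.40, where 1.16% of named genes were higher and 5.11% lower. Without array 1 the normexp medians of stroma and epithelium turned to -0.024 and 0.062, and without array 2 that of epithelium was 0.055. Of the 5 adipocyte markers, which matter here because PCK1 and PDK4 are strongly expressed in fat, 3 were well above background often enough, with a summed level of 776 to 850 in OXA RNA and 691 to 862 in control RNA. The erythroid list had 1 gene with a probe, which did not pass the filter for signal.

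PDK4 had its closest likeness over the 4 arrays in KCNE3 (a potassium channel subunit), BTG2 (an antiproliferative factor) and DNAJB1 (a heat shock co-chaperone), at Euclidean distances of 0.73, 0.78 and 0.80 in normexp log2 ratios, where the median over 2400 named genes was 2.17. For PDK1 the nearest were DYNC1LI2 (a dynein light intermediate chain), DMBT1 (a mucosal scavenger receptor) and PDYN (the prodynorphin precursor), at 0.15, 0.15 and 0.25 with a median of 0.88. For LDHA they were CRABP1 (a retinoic acid binding protein), SLPI (a secreted protease inhibitor) and LGALS9 (a galectin), at 0.83, 1.00 and 1.11 with a median of 2.03. KCNE3 read -1.15, -0.32, -0.88 and 0.10 on arrays 1 to 4, and CRABP1 read 0.23, -0.093, -1.17 and 0.15. The like genes were picked for nearness to PDK4, PDK1 and LDHA over these same values, so their shared pattern is no separate observation. Distances with no background correction were not taken. In that setting PDK1 on array 3 was at -1.73, against -0.37 with normexp.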

How the data were processed

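RNA from OXA-treated and control endometrium was hybridised in pairs to 4 arrays, a number that limits the precision. The deposited scanner files hold median spot and local background intensity for each dye. They also hold a log10 ratio, Cy5 over Cy3, which the authors' scanner software (per the file headers Agilent Feature Extraction 10.7.3.1) had background-subtracted, detrended and dye-normalized. The authors' deposited value table holds log2 ratios, found by slopes of 1.06, -1.00, 1.04 and -1.03 against the scanner ratios; its medians were -0.17, 0.06, -0.06 and 0.09, its direction is OXA over control under the sample labels, and its centring is unknown.

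Median intensities were corrected with normexp (offset 50), normalized by loess within arrays and fitted with limma 3.58.1 (R 4.3.3) by coefficients for OXA and for the dye (2 residual degrees of freedom, 3.88 after moderation), with Benjamini-Hochberg adjustment over 26927 probes. Spots of controls and outliers were dropped and repeated spots of a probe averaged. A probe stayed when well above background in at least 4 of 8 readings, which lost 121 further probes to outlier spots. Single-channel levels used loess and Aquantile with no background correction. The sources used here do not state whether an array's RNAs share a gilt; cultures were run in duplicate in 4 experiments, and p-values measure only the spread between these arrays. Names came from RefSeq accessions matched to the Sscrofa11.1 gene table (6700 of 7125 probes with one); the array build is not given, so no coordinates are stated. The fit was tested on simulated data.

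All 7 members are named with every probe; of each metabolic list up to 4 other genes were named by lowest unadjusted p, plus any called at the looser limit, and for PDK4, PDK1 and LDHA the 3 genes nearest over the 4 arrays. A gene that this rule names is not reported here. The members and the 21 gene lists were chosen with earlier results of these data known. Alternatives were other background treatments, median centring, other filters, no dye coefficient, OXA read as Cy5 throughout, an intensity trend with robust fitting, the mean over a gene's probes, and leaving out each array; 2 were added after the data were seen.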

Additional observations from a re-analysis of the deposited data

Results flagged for a closer look

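In 7 of the 22 member probes 1 array lay far from the other 3 in the normexp log2 ratios. Its gap to its neighbour, as a share of the whole range, was above Dixon's 95% critical value for 4 values. In each of the 7 the outlying array was array 1. Chance passes that value in about 1 in 20 groups if the 4 values have equal spread. Over the dimmer 13464 probes the normexp SD was 0.29 on array 1 and 0.17, 0.042 and 0.020 on arrays 2 to 4. The share of all probes above the critical value was not counted, so the 7 are not shown to be particular to the members. The gap was 0.911, 0.913, 0.923, 0.947 and 0.851 of the range for the 5 PCK1 probes from the brightest to the dimmest, with array 1 at -1.01, -1.19, -0.76, -0.49 and -0.14. It was 0.865 for the dimmest PDK4 probe, with array 1 at -0.80, and 0.832 for HK2, with array 1 at 0.21. With no background correction the same 7 gaps ran from 0.235 to 0.533 of the range and none was above the critical value, since the ratios of arrays 2 to 4 were then wider. The probes of a gene share the same RNAs, so the 5 PCK1 values are not separate observations.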

How the results depend on the processing

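PDK4 (-0.88 to -0.46) and PDK1 (-1.08 to -0.062) were below 0 in all 18 alternatives, and no member passed an adjusted p of 0.05 in any. The 18 are not separate checks. Leaving out the dye coefficient, fitting an intensity trend or changing the filter cannot move the fitted value of a probe. The value table gave the same PDK4 value as Agilent's log ratio (-0.83), and the scan as a block repeats the fit without array 1. Median centring in place of loess turned PCK1 to 0.016, HK1 to 0.031, HK2 to -0.059, LDHA to 0.020, GAPDH to 0.25 and the members' median to 0.016, and moved the median of the other metabolic genes to 0.21, with the median of all probes at 0.14. HK2 was also turned by Agilent's log ratio and the authors' value table (-0.33 each), by normexp with negative-control spots (-0.076), by no background correction with median centring (-0.17) and with the scan as a block, which is the fit without array 1 (-0.015). GAPDH was 0.0022 with OXA read as Cy5 throughout. Leaving out 1 array gave -0.88 to -0.64 for PDK4, -0.39 to -0.23 for PDK1, -0.50 to -0.012 for PCK1, -0.46 to -0.24 for HK1, -0.015 to 0.10 for HK2, -1.02 to 0.16 for LDHA and -0.50 to 0.27 for GAPDH, with LDHA turned without array 3 (0.16) and GAPDH without array 3 (0.27) and without array 2 (0.0061). HK2 had no value among probes well above background in 8 of 8 readings.

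Over all probes the count at an adjusted p under 0.05 was 0, and 0 to 6 with 1 array left out (6 without array 4). The looser count was 349 (168 higher, 181 lower) and became 1406 with no background correction (816 higher, 590 lower), 1541 with plain subtraction, 1829 with Agilent's log ratio, 1824 with the value table, 1761 with normexp on negative controls, 4297 with median centring (4293 higher, 4 lower), 2324 with median centring and no background correction (2049 higher, 275 lower), 679 with OXA read as Cy5 (574 higher, 105 lower) and 285 to 3121 with 1 array left out. The cause of these differences was not tested. Each array holds 1 OXA and 1 control RNA and gives 1 ratio, so the fit was paired by array. Pairing by gilt could not be judged, since the sources do not state whether an array's RNAs share a gilt. Signal over background limits HK2 (5 of 8 readings), and the dimmer PDK1 probe and the dimmest PCK1 probe (7 of 8 readings each).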
